A study of Homo sapiens with 6 samples.

Results

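Aminoacyl-tRNA synthetases are the enzymes that load each transfer RNA (tRNA) with its amino acid, and their transcripts were measured here by RNA sequencing in A549, a line of lung adenocarcinoma cells of human origin. The genes were found by symbol: a protein-coding gene entered when its name was EPRS, or a single-letter amino acid code followed by ARS, with an optional 1, 2, A or B. That gave 36 of the 58302 genes in the table, of which 19817 were protein-coding. Of these, 20 encode cytosolic enzymes, among them WARS for tryptophan, and 16, with the suffix 2, encode mitochondrial ones. EARS2 and TARSL2, also synthetases, have names outside this pattern and are given once, beside the mitochondrial enzymes. One group of cells had been transfected with SNHG5, a long non-coding RNA that hosts small nucleolar RNAs, and the control group with vector, both in the same line and culture medium. Each group had 3 libraries, described by the submitters as biological replicates. Whether the transfection was stable or transient, and how the vector was driven, was not given in the sources used here.

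A synthetase activates its amino acid with ATP and transfers it to the matching tRNA, so these enzymes set the identity of the genetic code and feed every ribosome. They fall into 2 structural classes, class I with 17 and class II with 18 of the genes here, while EPRS joins one enzyme of each class in a single chain. In animal cells 8 of the cytosolic genes encode enzymes held in the multisynthetase complex together with scaffold proteins, and the mitochondrial enzymes are made in the cytosol and imported. GARS and KARS serve both compartments from 1 gene. WARS is the synthetase known to be induced by interferon, through promoter elements read by interferon regulatory factors, among others. Many of the other cytosolic genes are known targets of ATF4, the transcription factor of the amino acid response.

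Promoter sequences bear on these known routes and are shown for WARS and for the members that hold the amino acid response element. The windows run from 250 bases before to 50 bases after each annotated start, from RefSeq on GRCh38.p14, and were found for 29 of the 36 genes, in 37 windows. The interferon-stimulated response element was searched as a pair of GAAA repeats with any 2 bases between them, the gamma-activated site as TTCNNNGAA and the amino acid response element as TGATGNAA, each on both strands, and no matches of different motifs overlapped. WARS was the only synthetase gene with a window holding the interferon-stimulated response element. That was 3.45% of the 29 with a window, against 4.38% of the 27305 genes with a promoter in the table. The WARS window with the element starts from the inner of the 2 annotated starts of this gene. It lies on chr14:100375298-100375597, minus strand, and also holds a gamma-activated site. Capitals mark, in order, the gamma-activated site, at bases -142 to -134 from the start, and the interferon element, at -55 to -46.
WARS: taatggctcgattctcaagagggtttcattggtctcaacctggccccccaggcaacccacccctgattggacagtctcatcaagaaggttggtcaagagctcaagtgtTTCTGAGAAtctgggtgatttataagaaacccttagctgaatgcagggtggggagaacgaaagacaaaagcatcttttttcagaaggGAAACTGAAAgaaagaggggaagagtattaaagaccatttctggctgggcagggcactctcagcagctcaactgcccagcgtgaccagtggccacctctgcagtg

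The gamma-activated site alone was common: 5 synthetase genes held it (CARS, PARS2, TARS, WARS and WARS2), 17.2% of those with a window, against 9.38% of all genes with one. The amino acid response element was held by 8 of the 29, or 27.6%, against 4.46% of all genes with a window, and 7 of the 8 were among the 16 cytosolic genes with a window. These stretches of 40 bases show each site in its surroundings, with the element that the search fixed in capitals. They lie on GRCh38.p14, in the order printed, at chr16:70289670-70289709 (minus strand), chr11:3057402-3057441 (minus), chr7:30594829-30594868 (plus), chr9:92293687-92293726 (minus), chr12:57488048-57488087 (plus), chr18:57621799-57621838 (minus), chr5:33440951-33440990 (plus) and chr12:32756071-32756110 (minus).
AARS: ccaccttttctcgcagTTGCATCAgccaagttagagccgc
CARS: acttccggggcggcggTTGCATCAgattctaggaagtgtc
GARS: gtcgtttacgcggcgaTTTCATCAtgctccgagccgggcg
IARS: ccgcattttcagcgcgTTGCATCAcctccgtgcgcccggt
MARS: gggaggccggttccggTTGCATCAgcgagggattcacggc
NARS: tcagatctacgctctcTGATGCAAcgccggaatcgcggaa
TARS: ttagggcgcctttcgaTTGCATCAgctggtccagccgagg
YARS2: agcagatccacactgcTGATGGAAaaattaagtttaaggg
A match to these letters is a description of the window and was not tested as a binding site.

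Library totals ran from 13378079 to 16999604 counts, and all 36 synthetase genes were counted in every library, at 69 to 6190 counts per gene and library. SNHG5 itself, the check of the labels, stood at 153, 126 and 62.9 CPM (counts scaled to a common library total) in the libraries labelled overexpression, against 61.0, 101 and 55.1 CPM in the control libraries (log2 fold change 0.66, SE 0.37, edgeR adjusted p 0.746). The library labelled overexpression 3 thus lay below control 2 in the RNA that was to be raised, and every direction given here is one between labels. On the component holding the largest share of variance (46.4%), overexpression 1 and 2 stood at -63.7 and -48.7 and overexpression 3 at 25.2, against 2.07, 54.6 and 30.5 for controls 1 to 3. Control 2 also stood apart in MALAT1, a nuclear RNA, with 28.1 CPM against 118 to 476 CPM in the other libraries. Of 12 markers of A549-like epithelium 2, SFTPC and SFTPB, were at 0 in all libraries, and the list summed to 8447 to 12296 CPM under the overexpression label and 11153 to 16168 CPM in controls. The 5 leukocyte markers summed to at most 1.86 CPM and the 4 endothelial markers to at most 0.133 CPM in any library, with 3 and 2 of them at 0. The 5 fibroblast markers summed to 4.92 to 21.1 CPM under the overexpression label and 10.2 to 20.2 CPM in controls.

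Among the synthetases, WARS stood apart from the rest, with a level about 2-fold lower under the overexpression label, while the other 35 genes all lay within 0.5 of no change on the log2 scale. No synthetase gene passed edgeR's adjusted threshold of 0.05 in either direction, where 0.128% of the 15631 genes tested did (0.0256% higher and 0.102% lower). On simulated counts this test recovered 16% of changes of 2-fold, so a gene not called may still differ by that size. With the replicate number as a block, 0 synthetase genes passed as well, against 0.467% of all genes. At an unadjusted edgeR p under 0.05 there was 1 synthetase gene, WARS, against 6.49% of all genes. Groups that did not overlap were found for 4 of the 36, or 11.1%, close to the 13.6% of all genes: RARS and IARS were higher, WARS and TARS2 lower, in all 3 libraries labelled overexpression than in any control, where 6.04% of all genes were higher and 7.52% lower in that way. In these bulk samples, fewer cells with a transcript and less of it per cell cannot be told apart.

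**Figure D1:**
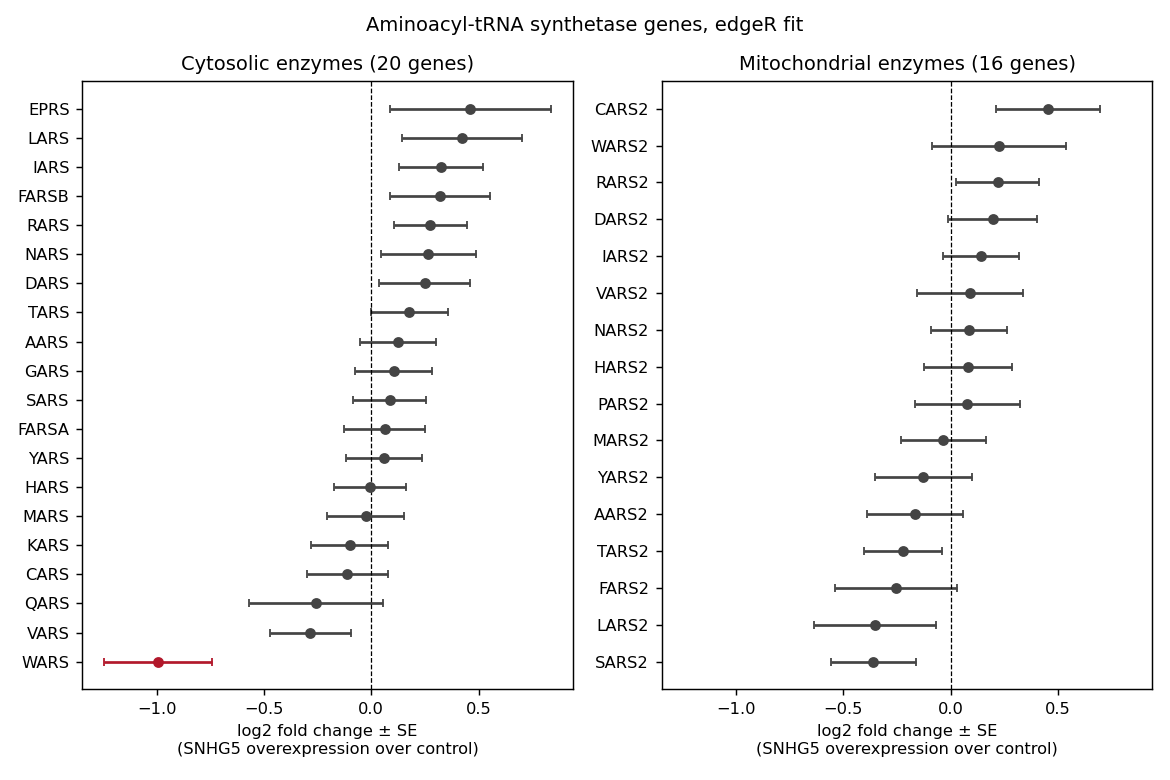
Log2 fold change, SNHG5 overexpression over control (x axis), of each synthetase gene (points) with its standard error (bars) from the edgeR fit of 3 libraries each, cytosolic enzymes left and mitochondrial right. WARS lies at -0.99, and the other 35 lie between -0.36 and 0.46.

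Over the family, 22 of 36 synthetase genes, 61.1%, had a positive value, against 50.7% of all genes tested. The median log2 fold change was 0.10 over the 19 cytosolic genes other than WARS and 0.08 over the 16 mitochondrial genes, against 0.01 over all genes. Both classes of enzyme stood near each other, with medians of 0.07 over the 16 class I genes other than WARS and 0.08 over the 18 class II genes. Synthetase genes together took 0.421%, 0.440% and 0.418% of the counts in the libraries labelled overexpression, against 0.391%, 0.365% and 0.404% in controls. The shares of the groups did not overlap on these raw totals. On the TMM-scaled totals used elsewhere they did, with summed levels of 4245, 4288 and 4096 CPM under the overexpression label, against 4037, 3546 and 4226 CPM in controls, so that overexpression 3 lay below control 3.

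WARS (ENSG00000140105, chr14:100333788-100376805 on GRCh38, minus strand) encodes the cytosolic tryptophanyl-tRNA synthetase, a class I enzyme outside the multisynthetase complex. It stood at 112, 95.9 and 142 CPM in the libraries labelled overexpression, against 169, 269 and 259 CPM in control libraries. Every library labelled overexpression was below every control, with overexpression 3 and control 1 the nearest to each other. The means were 117 ± 23.2 and 232 ± 54.9 CPM (SD, n = 3 each), 1.99-fold lower under the overexpression label. The log2 fold change was -0.99 (SE 0.25, 95% interval -1.57 to -0.41), with an edgeR p of 0.00433, rank 233 among all genes, and an adjusted p of 0.29. An exact two-sided permutation test gave p = 0.1, the smallest that 3 against 3 libraries allow.

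The call on WARS depended on the tool: DESeq2 gave the same log2 fold change of -0.99 with an adjusted p of 0.0439. With the replicate block, edgeR's adjusted p was 0.225. Left out one at a time, the libraries gave log2 values of -1.18 to -0.88. In the same-numbered pairs WARS was lower under the overexpression label in 3 of 3, with log2 differences of -0.59, -1.48 and -0.87, and 17.7% of all genes were lower in all 3 pairs. Of its 6358 exonic bases, 10.6% are shared with genes on the opposite strand, the antisense gene AL157871.4 and WDR25. The library kit does not mark the strand, and AL157871.4 was listed at 0 counts, so reads of such stretches cannot be told apart.

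The mitochondrial partner of WARS had a value of the other sign. WARS2, which charges mitochondrial tryptophan tRNA, stood at 19.3, 20.5 and 10.1 CPM in the libraries labelled overexpression, against 14.9, 15.9 and 11.7 CPM in controls. The groups overlapped, since overexpression 3 was the lowest of all 6 libraries and the other two of its group the highest. Its log2 fold change was 0.23 (SE 0.31, edgeR adjusted p 0.837). The log2 ratio of WARS to WARS2 was 2.53, 2.22 and 3.80 in libraries labelled overexpression, against 3.49, 4.06 and 4.45 in controls, a difference of -1.15 (exact two-sided permutation p 0.2). Here overexpression 3 lay above control 1, so the ratio did not separate the groups.

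**Figure D2:**
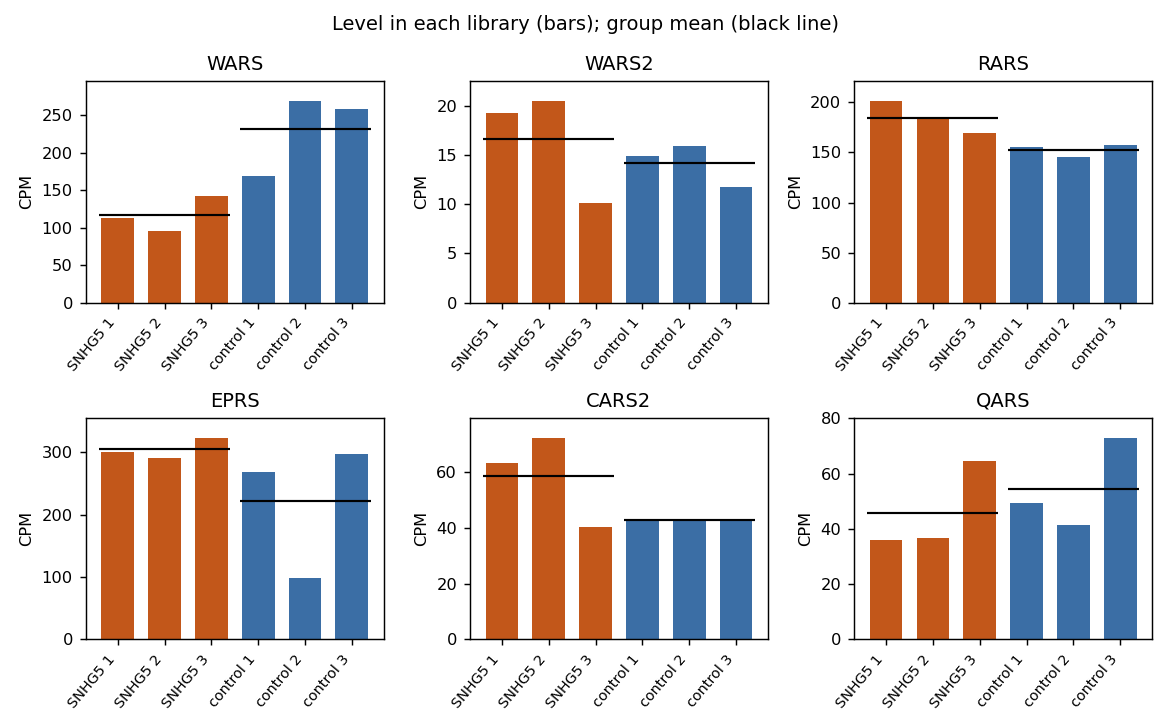
CPM in each library (bars) and the group mean (black lines) of 6 synthetase genes, with the libraries labelled SNHG5 overexpression in orange and left of the controls in blue. WARS and RARS separate the groups, in opposite directions, EPRS is low in control 2 alone (98.9 CPM), and QARS is high in replicate 3 of both groups.

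WARS was compared with the interferon genes, among which it is known to belong. All 23 genes listed as interferon signalling genes and targets had lower values under the overexpression label, with groups that did not overlap for any of them, against that 7.52% of all genes. The list was chosen with earlier results of these data known, so this count describes the list and is no test of it. Their median log2 fold change was -2.20, with a range of -4.42 to -0.99, where the median of all genes was 0.01. Past edgeR's adjusted threshold, 2 of them were lower, RSAD2 and IFIT2, and 10 with the replicate block, where 0.441% of all genes were. RSAD2, the gene of the antiviral protein viperin, was at 18.3, 12.8 and 13.0 CPM under the overexpression label against 110, 109 and 114 CPM in controls (edgeR adjusted p 0.0123). IFIT2, whose product binds viral RNA, was at 194, 130 and 260 CPM against 1431, 1589 and 2618 CPM in controls (edgeR adjusted p 0.0291). The fold change of WARS was thus near the value of this list closest to 0, the -0.99 of IRF9.

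IRF1 and IRF9, factors known to act through interferon-stimulated response elements, were named after their values were seen, for that role. IRF1, an interferon regulatory factor, stood at 70.2, 55.3 and 86.2 CPM in libraries labelled overexpression, against 186, 225 and 300 CPM in controls (log2 fold change -1.75, edgeR adjusted p 0.0668, and 0.0362 with the replicate block). IRF9, the DNA-binding subunit of the complex that forms on these elements, stood at 32.9, 50.4 and 46.1 CPM, against 91.5, 109 and 56.6 CPM in controls (log2 fold change -0.99, edgeR adjusted p 0.457). For both factors, as for WARS, the groups did not overlap, and edgeR without the block called neither. Whether they account for the level of WARS was not tested.

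Library by library, the order of WARS was nearly that of the interferon list. As deviations of log2 CPM from the mean over the 6 libraries, WARS stood at -0.53, -0.75 and -0.19 in overexpression 1 to 3, against 0.06, 0.73 and 0.68 in controls 1 to 3. The median of the interferon list stood at -1.33, -1.79 and -0.41 in the same overexpression libraries, against 0.86, 1.27 and 1.40 in controls. Overexpression 2 was the lowest and control 1 the lowest control in both series, and they differed in which of controls 2 and 3 came highest. The component with 46.4% of the variance of all genes also had overexpression 1 and 2 lowest. Among controls it had control 1 lowest and control 2 highest, as WARS did. Whether the order of WARS is particular to the interferon genes was not tested. The median of the other 19 cytosolic synthetase genes stayed between -0.20 and 0.13, and that of the 16 mitochondrial genes between -0.05 and 0.08. Set against the other cytosolic genes of its own library, WARS stood at -0.64, -0.89 and -0.22 under the overexpression label, against 0.09, 0.93 and 0.65 in controls.

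**Figure D3:**
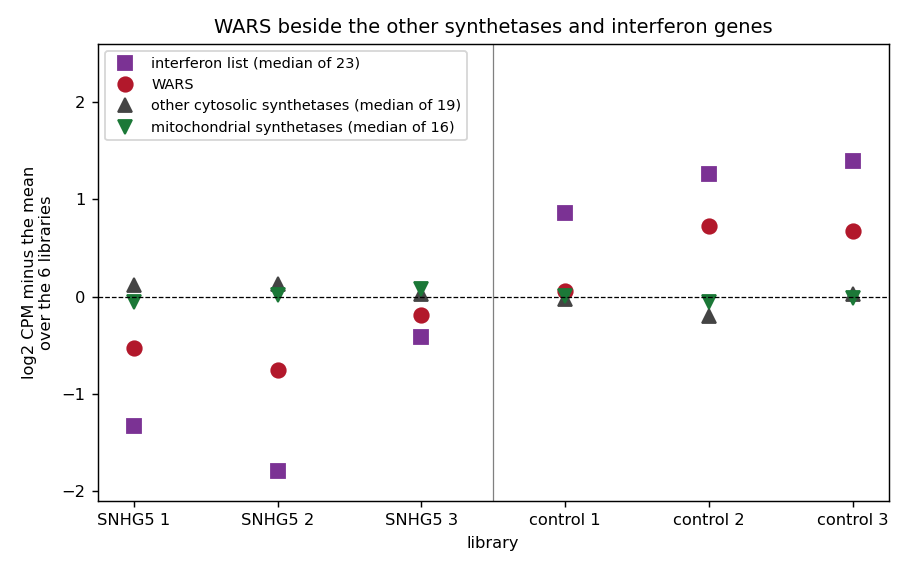
Log2 CPM minus the mean over the 6 libraries (y axis) in each library (x axis), for WARS and for the medians of 23 interferon genes, 19 other cytosolic synthetase genes and 16 mitochondrial synthetase genes. WARS and the interferon median are below 0 in the 3 libraries labelled SNHG5 overexpression and above 0 in the 3 controls. The medians of the other synthetases stay between -0.20 and 0.13, while single genes such as EPRS range more widely.

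The 8 enzymes of the multisynthetase complex had a median log2 fold change of 0.26, against 0.09 for the 11 cytosolic genes outside it other than WARS; neither group had a gene past the threshold. As deviations from the mean over the 6 libraries, the median of the complex stood at 0.28, 0.17 and 0.02 under the overexpression label, against -0.01, -0.21 and 0.05 in controls. The groups overlapped, with overexpression 3 below control 3 and control 2 the lowest. EPRS, the joined glutamyl- and prolyl-tRNA synthetase, had the highest fold change of all members. It stood at 301, 290 and 323 CPM under the overexpression label, against 269, 98.9 and 296 CPM in controls. The difference rested on control 2 (log2 fold change 0.46, SE 0.38, edgeR adjusted p 0.755), which was 0.11 without that library. LARS, the leucyl-tRNA synthetase that also acts as a leucine sensor for mTORC1, stood at 288, 303 and 216 CPM, against 239, 128 and 234 CPM in controls. Its groups overlapped, with overexpression 3 below controls 1 and 3, and control 2 again the lowest (log2 fold change 0.42, SE 0.28, edgeR adjusted p 0.749).

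IARS and RARS, the isoleucyl and arginyl enzymes, were the only synthetase genes above every control in all 3 libraries labelled overexpression. IARS stood at 328, 304 and 272 CPM, against 256, 199 and 266 CPM in controls. The gap between overexpression 3 and control 3 was narrow (log2 fold change 0.33, SE 0.20, edgeR adjusted p 0.746). RARS stood at 201, 184 and 169 CPM, against 155, 145 and 157 CPM in controls. Its groups lay apart by a modest step (log2 fold change 0.28, SE 0.17, edgeR adjusted p 0.746). For both genes the exact two-sided permutation p was 0.1, the smallest possible.

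QARS, the glutaminyl enzyme of the same complex, had a negative value. It stood at 35.9, 36.6 and 64.6 CPM under the overexpression label, against 49.4, 41.6 and 73.0 CPM in controls. Replicate 3 was the highest in each group, and each overexpression library lay below its same-numbered control (log2 fold change -0.26, SE 0.31, edgeR adjusted p 0.819). DARS, the aspartyl enzyme, had a log2 fold change of 0.25, and MARS and KARS, the methionyl and lysyl enzymes, had -0.03 and -0.10. Of the 3 scaffold proteins of the complex, AIMP1 stood at 88.4, 79.99 and 43.7 CPM, against 53.7, 46.5 and 53.7 CPM in controls. Its groups overlapped, because overexpression 3 was the lowest library (log2 fold change 0.46, SE 0.28, edgeR adjusted p 0.746). AIMP2 and EEF1E1, the other two scaffolds, had log2 fold changes of -0.07 and -0.08.

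Outside the complex, the cytosolic enzyme with the highest fold change was FARSB, the beta subunit of phenylalanyl-tRNA synthetase. It stood at 132, 141 and 82.8 CPM under the overexpression label, against 98.0, 91.5 and 95.6 CPM in controls. Overexpression 1 and 2 were above and overexpression 3 below all controls (log2 fold change 0.32, SE 0.23, edgeR adjusted p 0.749). FARSA, the alpha subunit that pairs with it, had a log2 fold change of 0.06. VARS, the valyl enzyme, had the lowest value after WARS among the cytosolic genes, with 105, 106 and 133 CPM against 147, 123 and 149 CPM in controls. Its groups overlapped only through overexpression 3, which exceeded control 2 (log2 fold change -0.28, SE 0.19, edgeR adjusted p 0.749). The remaining cytosolic enzymes outside the complex, those for alanine, cysteine, glycine, histidine, asparagine, serine, threonine and tyrosine, had log2 fold changes of -0.11 (CARS) to 0.27 (NARS).

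Mitochondrial enzymes lay on both sides of 0, 9 with positive and 7 with negative values, and none passed the threshold. CARS2, the cysteinyl enzyme, had the highest value, at 63.2, 72.4 and 40.3 CPM under the overexpression label, against 42.4, 43.2 and 42.9 CPM in controls. The 3 controls agreed closely, and overexpression 3 lay just under them while the other two were well above (log2 fold change 0.45, SE 0.24, edgeR adjusted p 0.746). Without overexpression 3 its log2 fold change was 0.66, with an edgeR adjusted p of 0.119. SARS2, the seryl enzyme, had the lowest value, at 26.8, 27.3 and 33.2 CPM, against 38.8, 41.1 and 32.2 CPM in controls. Overexpression 3 and control 3 were nearly equal and the other pairs apart (log2 fold change -0.36, SE 0.20, edgeR adjusted p 0.746). Of the exonic bases of SARS2 57.0% are shared with other genes, AC011455.2 on the same strand and MRPS12 on the opposite one, so its level is uncertain.

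LARS2, the mitochondrial leucyl enzyme, stood at 37.0, 25.1 and 41.8 CPM under the overexpression label, against 57.0, 32.0 and 43.8 CPM in controls. Each overexpression library lay below its same-numbered control, though the groups overlapped, replicate 2 being the lowest in both (log2 fold change -0.35, SE 0.28, edgeR adjusted p 0.754). TARS2, the threonyl enzyme, was the 1 mitochondrial gene whose groups lay apart, with 23.8, 26.4 and 24.5 CPM, against 29.3, 30.5 and 27.3 CPM in controls. The step was small beside WARS (log2 fold change -0.22, SE 0.18, edgeR adjusted p 0.755). EARS2, the mitochondrial glutamyl enzyme outside the name pattern, stood at 39.9, 54.6 and 47.0 CPM, against 57.4, 56.3 and 61.7 CPM in controls. Its groups also lay apart (log2 fold change -0.31, edgeR adjusted p 0.746), and TARSL2, a threonyl enzyme related to TARS, had a log2 fold change of 0.38.

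Cytosolic and mitochondrial enzymes for the same amino acid had values of opposite sign in 11 of 16 pairs. Apart from WARS, no gene of these pairs had an unadjusted edgeR p under 0.05, so the other signs are uncertain. The share to be found among unrelated genes was not computed. The pairs, also used for levels below, set FARS2 against both FARSA and FARSB, so they are not all independent. LARS and LARS2 had log2 fold changes of 0.42 and -0.35, and CARS and CARS2 had -0.11 and 0.45. The widest gap between partners was that of WARS and WARS2, at -1.22 on the log2 scale, and for leucine it was 0.78. At the other end, the methionine, aspartate and arginine pairs differed by 0.01 to 0.06. HARS and HARS2, which share 437 exonic bases across strands at their common start region, had -0.005 and 0.08, with reads of the shared bases uncertain in origin. The same holds for MARS, with 13.3% of its exonic bases shared with other genes, DDIT3 among them. It also holds for VARS2, with 22.0% shared with GTF2H4 on the same strand.

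Levels per length were set against each other between the compartments. As CPM per kilobase of annotated exon, taken as the median of the 6 libraries, cytosolic genes ran from 6.14 (CARS) to 61.8 (KARS) with a median of 30.2. Mitochondrial genes ran from 2.10 (PARS2) to 52.3 (IARS2) with a median of 6.18 CPM per kilobase. In 14 of 16 pairs for the same amino acid the cytosolic level per length was the higher one, by up to 18.8 times for FARSA over FARS2. The exceptions were isoleucine, with IARS at 0.696 times IARS2, and tyrosine, with YARS at 0.958 times YARS2. WARS, at 24.4 CPM per kilobase, ranked 14 among the 36 and stood 6.09 times above WARS2. By library its rank per kilobase was 15, 18 and 14 under the overexpression label, against 14, 8 and 10 in controls. The sizes depend on the length used. On the FPKM values the authors deposited, WARS ranked 21 and stood 3.29 times above WARS2, and FARSA stood 4.48 times above FARS2. The medians there were 20.6 FPKM for cytosolic and 5.00 FPKM for mitochondrial genes, and the cytosolic level was again the higher one in 14 of 16 pairs, with isoleucine and aspartate the exceptions.

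**Figure D4:**
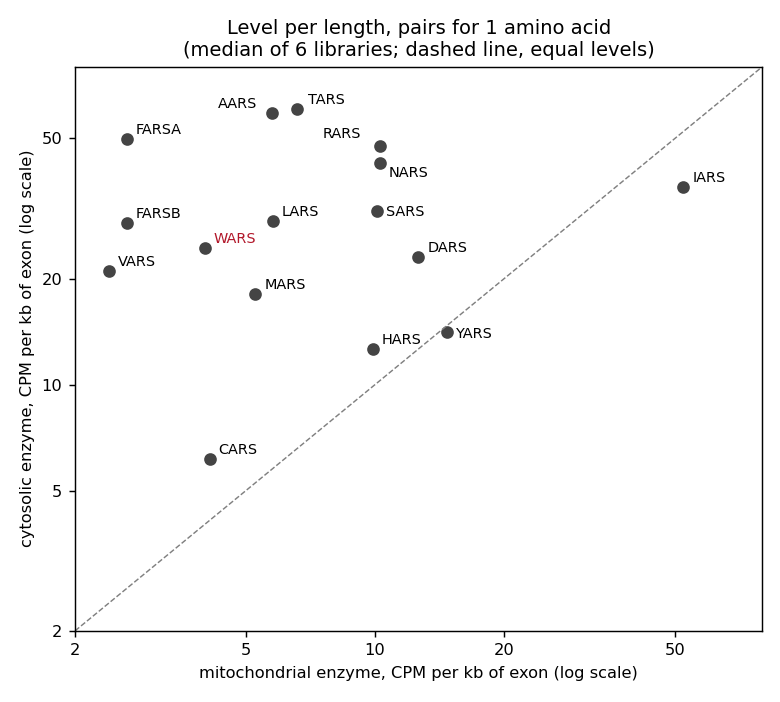
Level per length (CPM per kilobase of exon, median of 6 libraries, log axes) of the cytosolic enzyme (y axis, named) against the mitochondrial enzyme for the same amino acid (x axis). The dashed line marks equal levels, and 14 of 16 pairs lie above it.

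The spread within the groups followed particular libraries. Overexpression 1 and 2 were both above the other 4 libraries for 10 of the 36 synthetase genes, 27.8%, against 20.04% of all genes. These were CARS2, DARS, FARSB, IARS, LARS, NARS, RARS, SARS, TARS and WARS2, and of these 10 only IARS and RARS had overexpression 3 above all controls too. In the other direction, overexpression 1 and 2 were both below the other 4 libraries for 5 of 36, or 13.9%, against 21.0% of all genes. Control 2 was the lowest library for 13 of 36, or 36.1%, 9 of them cytosolic, against 26.7% of all genes. Over all genes, control 2 relative to the median of the other libraries was lower for genes with more exonic bases, at 0.26 on the log2 scale for genes of up to 3 kilobases of exon and -0.31 for genes over 8 kilobases. Among the members these values were -0.03 for the 4 shortest genes and -0.27 for the 5 longest. The part of exon length in the low values of EPRS and LARS in control 2 was not tested.

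Genes of the amino acid response, the known ATF4 route to many synthetase genes, showed no common direction. Of 29 such genes 14 had higher and 15 lower values under the overexpression label, and their median log2 fold change was -0.03; edgeR called 0 of them (1 had an unadjusted p under 0.05). ATF4 itself stood at 519, 539 and 261 CPM, against 501, 539 and 333 CPM in controls. It was low in replicate 3 of both groups (log2 fold change -0.06, SE 0.32, edgeR adjusted p 0.964). EIF2AK3, the kinase PERK that raises ATF4 translation, had the smallest p of the list, at 37.6, 37.9 and 24.2 CPM, against 24.5, 17.3 and 20.8 CPM in controls (log2 fold change 0.67, edgeR adjusted p 0.707). The 8 synthetase genes with the response element in their window had log2 fold changes of -0.13 to 0.33, with a median of 0.12.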

How the data were processed

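RNA from 6 A549 libraries was sequenced after column extraction and Illumina's TruSeq RNA kit, which does not mark strand, per the labels' protocols. FastQC, HISAT2 and build GRCh38 are named, without versions, per the submitters' processing notes. The counting step is not described there. For every library the authors deposited counts, as whole numbers per gene, beside FPKM values. The deposited FPKM values served only to check gene lengths (median 1.52 times that of the merged exons) and as a second scale of level; other levels per length use GENCODE release 29 exon unions (99.5% of gene rows found).

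Testing used edgeR 4.0.16 under R 4.3.3 on the counts (TMM factors, filterByExpr, robust quasi-likelihood, two-sided, Benjamini-Hochberg over all 15631 genes, threshold 0.05). CPM were computed on TMM-scaled totals, and edgeR's common biological variation came to 30.8%. A gene not seen has a floor of 3 counts, 0.176 to 0.224 CPM, for counting error only. Replicates differed by 26.2 to 94.5 in chi-square per degree of freedom, so each library counted as 1. The test was checked on simulated counts. It recovered 24 of 150 changes of 2-fold (16%) and 116 of 150 changes of 4-fold (77.3%), and 6.07% of all calls were false.

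Same-numbered libraries deviated together (correlations 0.35, 0.16 and 0.29), so the number was taken as a pairing, found from the data. Libraries of different number had correlations of -0.34 to 0.12, the highest for overexpression 2 with control 1, so the pairing was weak for replicate 2. Alternatives were that block, DESeq2 1.42.0, limma-voom from limma 3.58.1, other size factors and filters, and leaving out each library.

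The synthetase genes and the gene lists were chosen with earlier results of these data known. Values per library were given for WARS, WARS2, the 5 genes with the largest and the 5 with the smallest fold change, and genes with an unadjusted p under 0.05. Up to 4 genes of a list with the smallest p were named, those past the threshold where any were. RARS, TARS2, ATF4, the scaffold proteins, IRF1 and IRF9 were named outside these rules, after their values were seen.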

Additional observations from a re-analysis of the deposited data

How the results depend on the processing

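PARS2 was the member with the fewest counts, at 69 to 92 per library, and the effect of depth was not tested. No synthetase gene passed edgeR's threshold with any 1 library left out. WARS kept its direction in all 13 alternatives, with log2 values of -1.18 to -0.88 without 1 library, and of them DESeq2 alone called it (-0.99, adjusted p 0.0439), the 1 lower synthetase gene called in place of 0. Without overexpression 3, the library whose SNHG5 level lay below a control, its edgeR adjusted p was 0.0962, and over all libraries left out in turn it ran from 0.0962 to 0.964. Over all genes, the 16 lower calls became 69 under the replicate block, 72 when no filter was used, 240 by DESeq2 and 0 to 144 without 1 library, and the 4 higher calls became 22 by DESeq2 and 0 to 20 without 1 library; the cause was not tested. The edgeR fits without overexpression 2, control 2 or control 3 called no gene in either direction, with 635, 871 and 742 genes at an unadjusted p under 0.05. The replicate block changed no call on a synthetase gene (0 higher, 0 lower), and WARS stood at -0.98 with it. The median of the mitochondrial genes, 0.08, ran from -0.041 to 0.10 without 1 library and was negative without overexpression 3. Of 455 values for the 35 other genes under 13 alternatives, 438 kept their sign and 17, in 10 genes, changed it, among them QARS and FARS2, both at -0.26 over all libraries; the smallest adjusted p was 0.119. These were HARS with DESeq2 size factors (0.0035), library totals alone (0.035) and the stricter filter (0.0010), and with totals alone also MARS (0.016) and MARS2 (0.0079). Without 1 library, the ranges that crossed 0 were -0.062 to 0.042 for HARS, -0.14 to 0.058 for MARS, -0.068 to 0.0089 for MARS2, -0.093 to 0.14 for FARSA, -0.022 to 0.20 for HARS2, -0.11 to 0.25 for VARS2, -0.44 to 0.027 for FARS2, -0.030 to 0.11 for YARS, -0.26 to 0.065 for YARS2 and -0.59 to 0.0019 for QARS. Library totals alone moved the median of all genes to 0.05.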

Other observations

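Other genes that handle charged tRNAs were listed beside the synthetases, and edgeR called none of them past the adjusted threshold. At an unadjusted edgeR p under 0.05 there were PNPT1 and EEF1G, where 6.49% of all genes were. Groups that did not overlap, as given for single genes below, were found for 13.6% of all genes. Of 18 genes of mitochondrial tRNA processing and translation, 10 had higher and 8 lower values under the overexpression label, with a median log2 fold change of 0.04. PNPT1, a mitochondrial RNA exonuclease that interferon is known to induce, stood at 339, 253 and 335 CPM in the libraries labelled overexpression, against 651, 427 and 719 CPM in controls. Its groups did not overlap, and its log2 fold change of -0.95 (SE 0.25, edgeR adjusted p 0.348, 0.124 with the replicate block) was close to that of WARS. MTRF1, a mitochondrial release factor, stood at 8.56, 8.44 and 6.93 CPM, against 6.13, 5.38 and 5.17 CPM in controls, again without overlap (log2 fold change 0.52, edgeR adjusted p 0.746). GFM1 and MTIF2, an elongation and an initiation factor of mitochondrial ribosomes, had log2 fold changes of 0.39 and 0.68 with overlapping groups, and MTIF2 was lowest in control 2, at 37.0 CPM.

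The 5 cytosolic elongation factors, which carry charged tRNA to the ribosome and move it through, all had negative values, with a median log2 fold change of -0.27; several have near-identical pseudogenes, so their counts are uncertain. EEF1G, a subunit of the exchange factor for EEF1A, stood at 405, 479 and 445 CPM under the overexpression label, against 625, 762 and 525 CPM in controls. Its groups lay apart (log2 fold change -0.53, SE 0.21, edgeR adjusted p 0.743). EEF2, the translocation factor, stood at 1737, 1773 and 1818 CPM, against 2424, 1955 and 2068 CPM in controls, also without overlap (log2 fold change -0.27, edgeR adjusted p 0.749). Of 6 synthetase-related genes, such as XPOT, the nuclear exporter of tRNA, and SEPSECS, the last enzyme of selenocysteine tRNA synthesis, 5 had positive values, with a median of 0.19 and none called. SEPSECS stood at 15.1, 13.8 and 7.57 CPM, against 9.26, 7.87 and 8.44 CPM in controls, with overexpression 3 the lowest of the 6 libraries (log2 fold change 0.51, edgeR adjusted p 0.746).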
